A study of Mus musculus with 3 samples.

Results

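The clustered histone genes were taken as every gene in the expression matrix whose symbol begins with Hist1h, Hist2h, Hist3h or Hist4h. They numbered 67 of 31053 genes: 54 Hist1h genes, 10 Hist2h genes, 2 Hist3h genes and 1 Hist4h gene. By the protein encoded, 6 were linker histone H1 genes, 18 were H2A, 18 were H2B, 12 were H3 and 13 were H4. In the kept cells, 64 of the 67 had at least 1 unique molecular identifier (UMI, 1 counted transcript molecule), and 59 were detected with 50 or more UMIs. Of the 8 below that number, Hist1h4k had 43 UMIs, Hist1h2ah 36, Hist1h1t 10, Hist1h2ba 1 and Hist2h2aa2 1. Hist1h2aa, Hist1h2bq and Hist1h4m had 0 UMIs, which allows up to 3 counts each, or 0.018 CPM (counts per 1000000 UMIs) over all kept cells. In GENCODE coordinates on GRCm38, the 54 Hist1h genes lay on chromosome 13 between 21715763 and 23934851 and the 10 Hist2h genes on chromosome 3 between 96219865 and 96270132. The 2 Hist3h genes were on chromosome 11 and Hist4h4 on chromosome 6.

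The study measured single-cell RNA in C57BL/6 mouse spleen cells enriched for dendritic cells (DCs). Its 6 hashtagged samples were leukemia panobinostat 1 and 2, WT panobinostat, leukemia vehicle 1 and 2, and WT vehicle, where WT is wild type. Panobinostat, a histone deacetylase inhibitor, or vehicle was given for 2 days, and every sample went through a density gradient, a sort for cells lacking GFP and a magnetic selection for DCs. All 6 were pooled in 1 capture with the 10x 3' v3 chemistry, and no barcode occurred more than once. Disease and drug were read from the hashtag names, which carry AML or WT and either LBH, the development code of panobinostat, or D5W, taken as the vehicle. The leukemia model, the ages, the dose and whether a hashtag marks 1 animal are not given in the sources used here, so p-values measure the spread between these samples, which may be technical. After filtering, 19286 cells and 166861899 UMIs were kept, with 1668 to 6480 cells and 13015506 to 46437781 UMIs per sample. Leukemia vehicle 2 stood apart: its own hashtag had a median of 88 UMIs per cell against 357 to 776 in the other 5 samples, and 53.7% of its cells were cycling against 7.94% to 31.3%.

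Histones are the proteins that DNA is wrapped around, and a dividing cell must make a full new set while it copies its DNA. The clustered genes supply most of that set in S phase, and their usual mRNA ends in a conserved stem-loop, bound by the protein Slbp, in place of a poly(A) tail. Some of them can also give longer, polyadenylated transcripts, described in resting and differentiated cells. The capture chemistry primes on poly(A), so the UMIs count whatever transcript of each gene was primed, and they do not measure stem-loop mRNA as such.

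The annotated transcript ends, and motifs in the promoters, differ between the members described below. A 16-base stem-loop core was found in annotated transcripts of 46 of the 67 members (68.7%), against 22 of 21834 other protein-coding genes (0.101%). The core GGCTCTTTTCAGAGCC occurred in 26 members, of the H1, H2A, H2B and H3 families, and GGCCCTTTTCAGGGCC in 7 members, all of them H4 genes. These are the sites of 7 members whose values are given below, with the core in capitals and 5 bases on each side, from GENCODE vM21 transcripts.
Hist1h2ab: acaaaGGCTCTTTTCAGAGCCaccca
Hist1h3c: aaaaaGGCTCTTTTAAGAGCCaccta
Hist1h2ae: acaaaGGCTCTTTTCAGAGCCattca
Hist1h4d: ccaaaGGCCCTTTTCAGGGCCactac
Hist1h1c: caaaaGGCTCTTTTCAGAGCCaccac
Hist3h2a: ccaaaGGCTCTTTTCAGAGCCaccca
Hist4h4: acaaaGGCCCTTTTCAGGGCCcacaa
The sites look alike, whereas the length of annotated transcript that follows them does not: 11 nucleotides in Hist1h2ab, 74 in Hist1h3c, 151 in Hist1h2ae, 770 in Hist1h4d, 840 in Hist1h1c, 1643 in Hist3h2a and 2445 in Hist4h4.

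RefSeq promoter windows of 300 bases on GRCm38.p6, from 250 before to 50 after the gene start, were matched for 62 members. The octamer ATTTGCAT, searched on both strands and known as a site of POU-family factors in H2B promoters, occurred in 13 of the 62 (21%) against 570 of all 32851 promoters (1.74%). It was found in 7 of 18 H2A and 6 of 16 H2B promoters and in none of the H1, H3 and H4 promoters. These 30-base windows, with the octamer in capitals on the gene's own strand, are shown because the genes that carry it include Hist1h2ab and Hist3h2a, whose fold changes reported below lie far apart.
Hist1h2ab (chr13:23750948-23750977, plus strand): tgcaggcctttATGCAAATgaggagctcaa
Hist1h2ae (chr13:23571330-23571359, minus strand): atagaggttctATGCAAATaagggactcaa
Hist1h2bg (chr13:23571330-23571359, plus strand): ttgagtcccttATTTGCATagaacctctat
Hist1h2ac (chr13:23684071-23684100, minus strand): tgggtgggattATGCAAATgaagtttccag
Hist3h2a (chr11:58954555-58954584, plus strand): gggtaaggcatATGCAAATtaggaaggctc
The Hist1h2ae and Hist1h2bg windows are the 2 strands of 1 site, since these genes are transcribed away from each other across a gap of 175 bases. CCAAT, searched on both strands, was found in 53 of 62 member promoters (85.5%), including all of the H1, H2A, H2B and H3 promoters but 3 of 12 H4 promoters, against 37.4% of all promoters. TATAAA on the gene strand was found in 30 of 62 (48.4%) against 8.32% of all. A match describes the letters only.

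The members held 184118 UMIs, 0.110% of all UMIs in kept cells. H1 genes gave 32.4% of these, H2A genes 31.8%, H2B genes 14.1%, H4 genes 11.8% and H3 genes 9.90%. The 12 members with the most UMIs gave 70.2% of the total. They were the H2A genes Hist1h2ae (25621 UMIs), Hist1h2ac (6181), Hist1h2ap (5963) and Hist1h2ab (4637), the linker genes Hist1h1b (21857), Hist1h1e (15317), Hist1h1c (14648) and Hist1h1d (5372), the H2B gene Hist1h2bc (9170), the H4 genes Hist1h4d (8765) and Hist1h4i (7020), and the H3 gene Hist1h3e (4706). The cells of leukemia vehicle 2 in 1 unnamed cluster, led by Cited1 and Ms4a2, gave 62809 of the member UMIs (34.1%). Without those cells 11 of the 12 stayed among the 12 highest, with Hist3h2a in the place of Hist1h2ab. These are 3'-end UMI counts, with no correction for how well each transcript is primed, so their order is an order of counted molecules and not of total mRNA.

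Cycling cells, defined by 3 or more UMIs of Mki67, Top2a and Pclaf together, numbered 4021 (20.8% of kept cells). They held 38.0% of all UMIs and 78.5% of the member UMIs. The summed member level was 2280 CPM in cycling cells and 382 CPM in other cells. Cycling cells were also deeper, with a median of 14851 UMIs against 5486 in other cells, and 3 UMIs of the defining genes are reached more easily in a deep cell. The share of a gene's UMIs found in cycling cells ran, among the 12, between 96.0% for Hist1h2ab and 43.8% for Hist1h2bc. Hist1h1c, with 55.4%, was the next lowest, and Hist1h1b (94.5%), Hist1h2ap (90.7%) and Hist1h2ae (90.3%) followed the highest. Hist3h2a, an H2A gene outside the naming rule and chosen after its values were seen, had 26.2% of its 4436 UMIs in cycling cells.

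The comparison of cycling with other cells was then made within 1 cell class at a time, on UMIs summed for each hashed sample. Cells were clustered without the histone members and without genes that follow the cell cycle, and clusters were named from their markers. Type 1 conventional DCs (cDC1), known for presenting antigen from engulfed cells to CD8 T cells, gave 3319 cDC1-like cells, 673 of them cycling. Type 2 conventional DCs (cDC2), known for presenting antigen to CD4 T cells, gave 3668 cDC2-like cells, 585 of them cycling. The cDC1-like clusters had 9 to 11 of 11 cDC1 markers raised and the cDC2-like clusters 6 of 10 cDC2 markers. Summed cDC2 markers were at 541 CPM in cDC2-like cells, against 141 CPM in cDC1-like and 190 CPM in mature DC-like cells. They were higher in plasmacytoid DC-like (1029 CPM), monocyte-like (748 CPM) and macrophage-like cells (595 CPM), so the cDC2 name rests on weaker ground. The smaller cDC2-like cluster, with 528 cells, also had 3 monocyte markers raised. The largest cDC1-like cluster, with 1613 cells and 469 of the 673 cycling ones, also had the pancreatic acinar genes Clps, Prss2 and Ctrb1 among its 10 leading genes, beside the cDC1 markers Tlr3 and Xcr1. In its cycling cells of WT vehicle, 3158 of 3165 acinar marker UMIs lay in 1 cell.

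Most members that could be tested were higher in cycling cells. In cDC1-like cells 44 members were tested, 39 rose in cycling cells, 1 fell and 4 were not called, at an adjusted p under 0.05 from edgeR's quasi-likelihood test over 9335 genes. The background was 22.8% of all tested genes higher and 23.7% lower. In cDC2-like cells 39 members were tested, 34 rose, 2 fell and 3 were not called, against 23.6% of 8172 genes higher and 23.9% lower. The median log2 fold change of the tested members was 2.38 in cDC1-like and 2.59 in cDC2-like cells, and that of all tested genes was -0.04 in both. A gene had to pass a filter on low counts to be tested, and a low gene could pass through its counts in cycling cells alone, so these counts describe the tested members and not all 67.

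Hist1h1b, a linker histone gene that is active in proliferating cells, showed the pattern most plainly among the abundant members. In cDC1-like cells its level in the 6 samples ran between 139 and 226 CPM (median 205) in cycling cells, against 4.1 to 9.85 CPM (median 5.56) in other cells. In cDC2-like cells it ran between 423 and 642 CPM (median 486) in cycling cells and between 10.2 and 32.0 CPM (median 13.9) in other cells. In both classes the lowest cycling sample lay far above the highest of the others. The log2 fold change was 4.91 (SE 0.098, adjusted p = 1.91e-31 by edgeR) in cDC1-like cells and 4.86 (SE 0.099, adjusted p = 2.04e-38) in cDC2-like cells, higher in 6 of 6 samples in each.

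**Figure D1:**
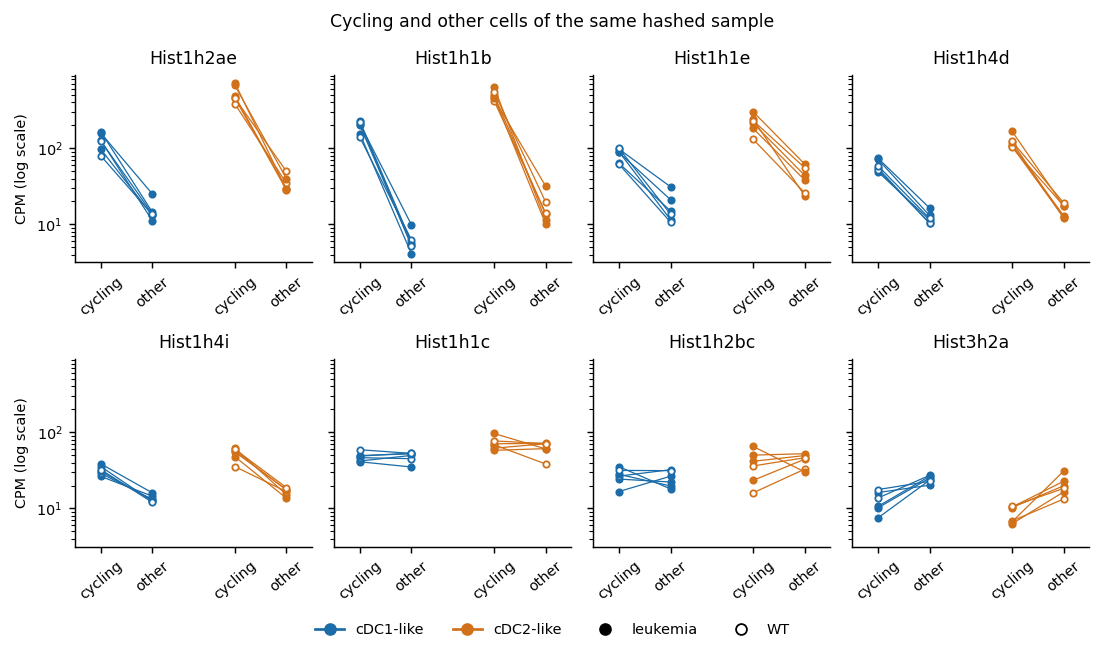
Levels (CPM, log axis) of selected members in each of the 6 hashed samples, summed over cycling cells and over other cells of the same class; each point is 1 sample. Hist1h1b lies at 139 to 226 CPM in cycling cDC1-like cells and at 4.1 to 9.85 CPM in other cDC1-like cells, whereas Hist3h2a is lower in the cycling cells of every sample and Hist1h1c overlaps.

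Among the H2A genes, Hist1h2ae, the member with the most UMIs, reached 79.4 to 165 CPM (median 126) in cycling cDC1-like cells, against 11.1 to 25 CPM (median 13.6) in other cDC1-like cells. In cDC2-like cells it reached 382 to 717 CPM (median 468) in cycling cells, against 28.5 to 49.7 CPM (median 31.7) in others. The groups did not overlap in either class, and the log2 fold changes were 2.91 (SE 0.094) and 3.62 (SE 0.093). Hist1h2ab had a larger fold from a lower level: 19.6 to 31.4 CPM in cycling cDC1-like cells, against 0.547 to 3.28 CPM in others, a log2 fold change of 3.90 (SE 0.19). In cDC2-like cells its log2 fold change was 5.08 (SE 0.19). Hist1h2af had the largest fold in cDC1-like cells, with 9.11 to 15.6 CPM in cycling cells and 0 to 0.412 CPM in others (fitted log2 fold change 5.34, SE 0.30). Because 1 of the samples was at 0 in the other cells, that fitted value depends on the prior count. Hist1h2ap, Hist1h2ak and Hist1h2an rose by log2 values of 3.20, 4.38 and 3.58 in cDC1-like cells and 3.6, 4.21 and 4.67 in cDC2-like cells.

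H3 genes, which encode the histone whose tail carries many of the known regulatory marks, rose in every tested case, 8 of 8 in cDC1-like and 7 of 7 in cDC2-like cells. Hist1h3c had 24.7 to 35.4 CPM (median 31.6) in cycling cDC1-like cells, against 0.985 to 1.91 CPM (median 1.26) in other cells. In cDC2-like cells it had 48.1 to 112 CPM (median 78.3) in cycling cells, against 0 to 2.85 CPM (median 1.31) in others. The groups were far apart in both classes, with log2 fold changes of 4.45 (SE 0.17) and 5.42 (SE 0.22). Hist1h3b rose by 4.59 (SE 0.52) and 4.85 (SE 0.52), and Hist1h3e, the H3 gene with the most UMIs, by 1.45 (SE 0.12) and 2.14 (SE 0.15). The smallest H3 change in each class was 0.65 and 0.95.

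H4 genes had the lowest median fold of the 5 families. In cDC1-like cells 6 of 6 tested H4 genes rose, with a median log2 fold change of 1.36, and in cDC2-like cells 4 of 5 rose, with a median of 1.56. The corresponding medians were 2.95 and 3.62 for H2A, 1.66 and 2.46 for H2B, 2.23 and 2.14 for H3, and 2.76 and 2.23 for H1. Whether the families differed from each other was not tested. Hist1h4d had 49.0 to 73.9 CPM in cycling cDC1-like cells, against 10.3 to 16.4 CPM in others, and 103 to 167 CPM in cycling cDC2-like cells, against 12.2 to 19.2 CPM in others. Its ranges did not overlap and its log2 fold changes were 2.18 (SE 0.089) and 2.77 (SE 0.11). Hist1h4i rose by 1.14 (SE 0.10) and 1.56 (SE 0.14).

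Folds of H2B genes ran between -0.10 and 4.1 in cDC1-like and between -0.36 and 4.82 in cDC2-like cells. Hist1h2bn rose by 3.24 (SE 0.33) in cDC1-like and 4.82 (SE 0.33) in cDC2-like cells, and Hist1h2bm by 4.1 (SE 0.43) and 4.47 (SE 0.42). Hist1h2bc, the H2B gene with the most UMIs, had 16.7 to 35.4 CPM in cycling cDC1-like cells and 18.1 to 32.3 CPM in other cDC1-like cells. The ranges overlapped and its log2 fold change of -0.10 (SE 0.12) was not called. In cDC2-like cells it had 16 to 65.2 CPM in cycling cells and 30.3 to 52.4 CPM in others. That difference was called lower at -0.36 (SE 0.14, adjusted p = 0.0301), though the ranges overlap, 1 of 6 samples was higher in cycling cells, and the call was lost in 9 of 14 alternative analyses (adjusted p between 0.00154 and 0.915).

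Among the H1 genes, Hist1h1d rose by 2.76 (SE 0.15) and 2.02 (SE 0.13) and Hist1h1e by 2.31 (SE 0.11) and 2.23 (SE 0.097), in cDC1-like and cDC2-like cells. Hist1h1c, also an abundant linker gene, had 41.0 to 59.0 CPM (median 47.6) in cycling cDC1-like cells, against 35.0 to 53.4 CPM (median 50.9) in other cells. In cDC2-like cells the ranges were 58.0 to 96.5 CPM in cycling cells and 38.5 to 71.6 CPM in others. The ranges overlapped in both classes, 3 of 6 samples were higher in cycling cells in each, and the log2 fold changes of -0.09 (SE 0.076) and 0.07 (SE 0.10) were not called.

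Hist3h2a ran the other way. It had 7.53 to 17.7 CPM (median 12.2) in cycling cDC1-like cells, against 20.2 to 27.2 CPM (median 24.3) in other cDC1-like cells. In cDC2-like cells it had 6.30 to 10.7 CPM (median 8.57) in cycling cells, against 13.3 to 30.9 CPM (median 19.1) in others. It was lower in cycling cells in 6 of 6 samples of both classes without overlap, and fell by 0.97 (SE 0.13, adjusted p = 7.31e-08) and by 1.22 (SE 0.22, adjusted p = 5.13e-06) on the log2 scale. Hist3h2a overlaps the gene Trim17 on the same strand, and how the counting settled shared reads is not known.

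**Figure D2:**
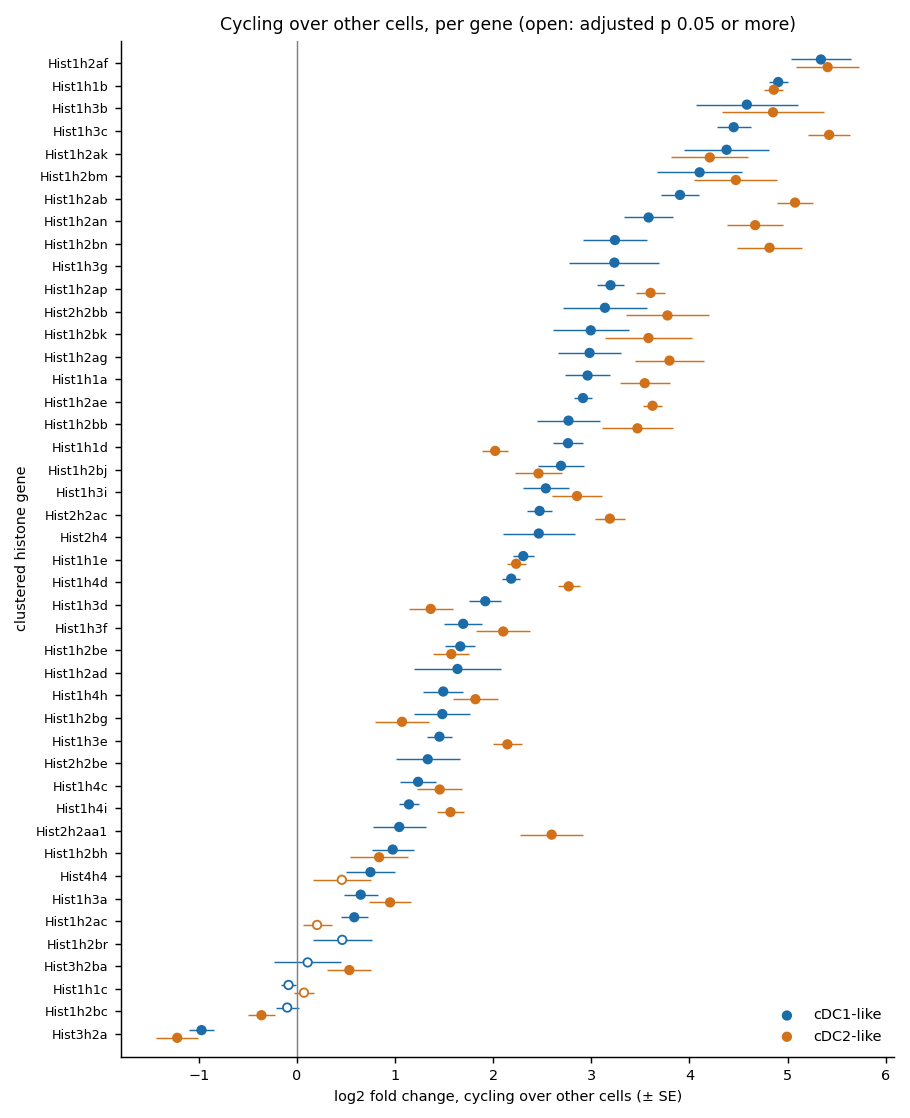
Log2 fold change of each tested member (1 row per gene, in the order of the cDC1-like values, with genes tested in only 1 class included), cycling over other cells, in cDC1-like and cDC2-like cells. Points carry bars of 1 SE and open points are not called; most lie above 0 in both classes, with Hist1h1c near 0 and Hist3h2a lowest at -0.97 and -1.22.

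The cycling effect differed between the classes for 5 of 45 tested members by the interaction term, against 8.45% of 9927 genes, so the share of members was near that of all genes. The cycling effect was larger in cDC2-like cells for Hist2h2aa1, Hist1h2ab, Hist1h2ae and Hist1h4d, and larger in cDC1-like cells for Hist1h1d. Members that were not called could also lie apart, such as Hist1h2bn with 3.24 and 4.82.

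Pairs of divergently transcribed H2A and H2B genes share the stretch between their starts, and their folds were set side by side. Hist1h2ae and Hist1h2bg had log2 fold changes of 2.91 and 1.48 in cDC1-like cells and 3.62 and 1.07 in cDC2-like cells. Hist1h2ak and Hist1h2bn had 4.38 and 3.24 in cDC1-like cells, and 4.21 and 4.82 in cDC2-like cells. Hist1h2ac and Hist1h2bc, the pair with the lowest folds, had 0.58 and -0.10 in cDC1-like cells and 0.20 and -0.36 in cDC2-like cells. Hist1h2ac was at -0.06 in cDC1-like cells without the cluster that had acinar genes among its leading genes. These 3 pairs were chosen after their values were seen.

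The depth and the other cell types' markers were read in the same sums. Median UMIs per cycling cell ran between 17378 and 20535 in cDC1-like and between 7929 and 9407 in cDC2-like cells, against 10759 to 12389 and 4620 to 5679 in other cells. When every cell was thinned to 2000 UMIs, the mean number of member UMIs per cell was 2.06 in cycling and 0.573 in other cDC1-like cells, and 4.99 in cycling and 0.961 in other cDC2-like cells. The shares of cells with any member UMI were then 66.9% of cycling and 39.8% of other cDC1-like cells, and 80.3% of cycling and 53.9% of other cDC2-like cells. Before thinning they were 99.3% and 88.1%, and 95.2% and 80.9%. Thinning left fewer members to test: 10 of 13 rose and 1 fell in cDC1-like cells, and 19 of 23 rose in cDC2-like cells. Counts of members in alternative settings, here and below, have no share of all genes beside them and describe the members alone. Summed markers of pancreatic acinar cells were at 1101 CPM in cycling cDC1-like cells of WT vehicle, against 1.52 to 4.0 CPM in those of the other 5 samples, and at 1.34 to 4.93 CPM in other cDC1-like cells. All 6 acinar markers were higher in cycling than in other cDC1-like cells, in sums that include the 1 WT vehicle cell with 3158 acinar marker UMIs. Without WT vehicle, 36 members were called in cDC1-like cells. Without the cluster that had acinar genes among its leading genes, 19 of 25 tested members rose and 1 fell, with a median of 1.82, and Hist1h1b was at 4.40. The 12 erythroid markers summed to 496 to 2648 CPM in cycling and 799 to 1502 CPM in other cDC1-like cells. The part of these markers in the member counts was not tested.

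Other genes of histone supply and of the cell cycle gave the frame for these folds. All 25 of the S phase genes and all 23 of the G2/M genes tested rose in cycling cells of both classes. They share the choice of cycling cells with the members, and are no independent support. Of the listed histone genes outside the clusters, most of them variants that are made without a tie to DNA replication, 7 of 9 rose in cDC1-like and 8 of 9 in cDC2-like cells, with median log2 fold changes of 0.30 and 0.65. The centromeric histone gene Cenpa rose by 2.50 (SE 0.091) and 2.86 (SE 0.10), H2afx, which can also give stem-loop mRNA, by 2.09 (SE 0.081) and 3.79 (SE 0.077), and H2afz by 1.19 (SE 0.032) and 1.67 (SE 0.032). Of the genes for histone mRNA processing and histone supply, 16 of 20 rose in cDC1-like and 14 of 20 in cDC2-like cells, and none fell. The histone chaperone gene Asf1b rose by 3.95 (SE 0.12) and 4.41 (SE 0.13). Slbp, which encodes the stem-loop binding protein and is outside the naming rule, rose by 1.56 (SE 0.068) and 2.04 (SE 0.077).

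The members were also grouped by the annotated ends of their transcripts, a grouping chosen with the folds known. The medians cover tested members alone, and no test was made over members. In 23 members the transcript ran at most 100 nucleotides past the stem-loop. Their median log2 fold change was 2.98 in cDC1-like cells (15 tested) and 3.58 in cDC2-like cells (13 tested), and 87.7% of their UMIs lay in cycling cells. In another 23 members it ran further, and the medians were 1.47 (18 tested) and 1.45 (17 tested), with 74.1% of UMIs in cycling cells. The members with these longer annotated transcripts gave 57.7% of all member UMIs. UMIs were counted per gene, so which transcript each came from is not known. In 13 members no 3' untranslated region was annotated, among them Hist1h1b, and their medians were 3.41 and 4.44 (6 tested in each class). The remaining 8 had such a region without a stem-loop, among them Hist1h2bc, with 742 nucleotides, and Hist1h2af. The annotated region of Hist1h2af was 1 nucleotide long and could not hold a stem-loop. A sequence that matched a poly(A) signal followed the stem-loop in 16 of the 23 longer transcripts and in 1 of the 23 shorter ones. The ranges overlapped in cDC1-like cells. Folds ran between 0.65 and 4.59 for members with shorter and between -0.97 and 2.91 for those with longer annotated transcripts.

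**Figure D3:**
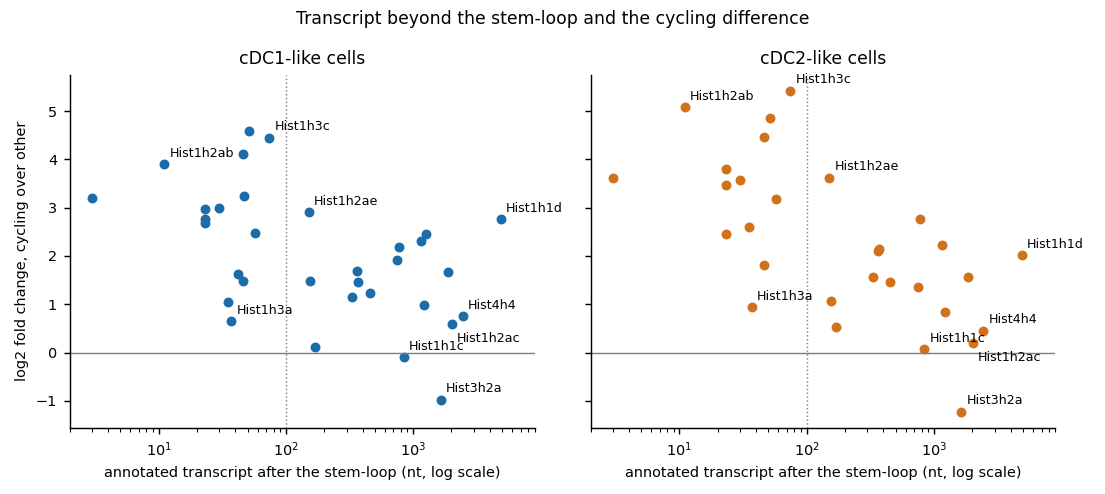
Annotated nucleotides after the stem-loop (log axis) against the log2 fold change of cycling over other cells, 1 point per tested member with a stem-loop, for cDC1-like and cDC2-like cells. Members with up to 100 nucleotides have a median of 2.98 and 3.58 and those with more a median of 1.47 and 1.45; Hist3h2a, with 1643 nucleotides, lies lowest.

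Cycling cells of all classes were then split by whether S phase or G2/M genes held more of their UMIs, relative to the median ratio over cycling cells. The split cuts a continuous score, and 316 of the 4021 cells lay within 0.25 of the cut on the log2 ratio. None of 53 tested members was higher in the S-leaning cells, and 41 were lower, by edgeR's quasi-likelihood test at an adjusted p under 0.05 (background 13.5% of 10717 genes higher and 11.3% lower). The median log2 fold change was -0.80. The summed member level was 950, 1153, 1354, 1269, 2483 and 1406 CPM in S-leaning cells of leukemia panobinostat 1 and 2, WT panobinostat, leukemia vehicle 1 and 2 and WT vehicle, against 2517, 2766, 2063, 2418, 3285 and 2516 CPM in their G2/M-leaning cells. Every sample was lower in its S-leaning cells.

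The class make-up differed between S-leaning and G2/M-leaning cells. The cDC1-like class made up 21.5% of S-leaning and 12% of G2/M-leaning cells, the erythroid-like class 16.4% and 25.2%, and the cluster led by Cited1 and Ms4a2 28.9% and 35.6%. In cDC1-like and cDC2-like cells alone, an alternative chosen after seeing the data, none of 43 tested members was higher and 37 were lower, with a median of -0.97.

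Hist1h1c, which was not called between cycling and other cells of the cDC1-like or the cDC2-like class, was lower in S-leaning cells. Over all classes it had 128 CPM in cycling and 63.2 CPM in other cells. It had 35.5 to 103 CPM in the S-leaning cells of the 6 samples and 114 to 194 CPM in the G2/M-leaning cells, and fell by 1.28 (SE 0.10, adjusted p = 1.98e-06), and its value in cDC1-like and cDC2-like cells alone was -0.94. Hist1h4d, with 39.5 to 94.4 CPM against 124 to 181 CPM, fell by 1.29 (SE 0.11, adjusted p = 2.60e-06). Hist3h2a fell by 1.36 (SE 0.12), but in cDC1-like and cDC2-like cells alone its value of -0.43 was not called (adjusted p = 0.162 by edgeR). Hist3h2ba, an H2B gene, fell by 1.68 (SE 0.22) and Hist1h2ae by 0.86 (SE 0.14). Hist1h1b had 198 to 411 CPM in S-leaning and 274 to 443 CPM in G2/M-leaning cells, and its value of -0.35 (SE 0.14, adjusted p = 0.0940) was not called, although in cDC1-like and cDC2-like cells alone it was called at -0.72. The S-leaning cells held fewer UMIs of the 3 genes that define cycling, with medians of 9 to 13 per cell against 19 to 30, and when cycling was called on cells thinned to 2000 UMIs, 1 member was higher and 6 were lower of 24 tested. The part of that gap in the difference was not tested beyond that setting.

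Levels differed between cell classes, and so did the share of cycling cells. Summed over members, erythroid-like cells (1269 cells, 65.9% cycling) had 2354 CPM and the unnamed cluster led by Cited1 and Ms4a2 (1547 cells, 83.8% cycling) had 2737 CPM. Of that cluster's cells, 79.4% came from leukemia vehicle 2. The cluster had 6 of 12 erythroid markers and 3 mast or basophil markers raised. Its erythroid markers summed to 20494 CPM, against 141330 CPM in erythroid-like cells, and its mast or basophil markers to 695 CPM. The 4 DC-like classes had 930 CPM in cDC2-like cells (15.9% cycling), 555 CPM in mature DC-like cells (4039 cells, 4.38% cycling), 486 CPM in cDC1-like cells (20.3% cycling) and 297 CPM in pDC-like cells (2674 cells, 0.561% cycling). Mature DCs are Ccr7-expressing cells that carry antigen to T cells, and plasmacytoid DCs (pDCs) are the lineage known for making type I interferon. Over the 6 samples, cDC2-like cells had 788 to 1330 CPM, mature DC-like cells 426 to 710, cDC1-like cells 418 to 616 and pDC-like cells 252 to 313. The sums of the cDC2-like class and of the pDC-like class thus stood apart from the others in every sample, whereas mature DC-like and cDC1-like cells overlapped. This did not hold for each cluster. The larger cDC2-like cluster had 1013 CPM and the smaller 508 CPM. Mature DC-like clusters ran between 267 and 1009 CPM, and cDC1-like clusters between 363 and 618 CPM. In cells that were not cycling, the levels were 451 CPM in mature DC-like, 445 in cDC2-like, 296 in pDC-like and 262 in cDC1-like cells. Among those cells, mature DC-like clusters ran between 264 and 711 CPM, and the larger and smaller cDC2-like clusters had 464 and 362 CPM.

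**Figure D4:**
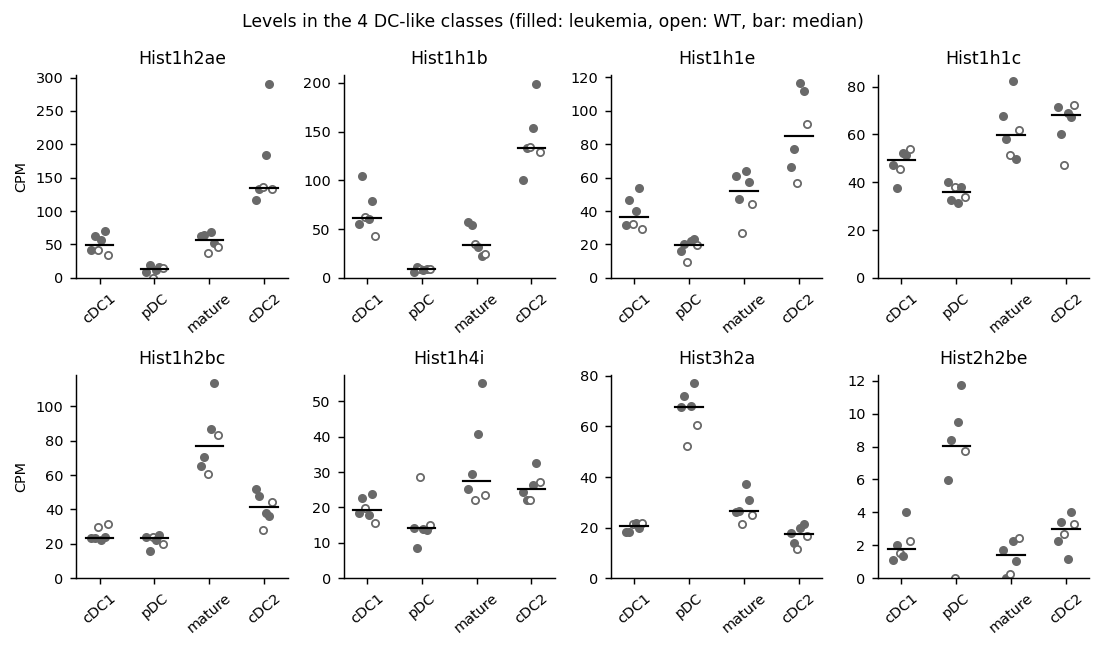
Level (CPM, axes from 0) of 8 members in the cDC1-like, pDC-like, mature DC-like and cDC2-like classes, 1 point for each of the 6 hashed samples (filled leukemia, open WT) with a bar at the median. Hist3h2a lies highest in pDC-like cells, at 52.3 to 77.1 CPM, Hist1h2bc highest in mature DC-like cells, at 60.8 to 113 CPM, and Hist1h2ae highest in cDC2-like cells, at 117 to 290.0 CPM.

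The pDC-like cells were lower than cDC2-like cells for most members and higher for a few. Of the tested members, 4 of 44 were higher and 39 lower (30.5% and 32.9% of 11078 genes). Hist3h2a ran between 52.3 and 77.1 CPM (median 67.9) in pDC-like cells, against 11.4 to 21.3 CPM (median 17.4) in cDC2-like cells, without overlap (log2 fold change 1.86, SE 0.11, adjusted p = 3.30e-15). Hist2h2be, an H2B gene, had a median of 8.06 CPM in pDC-like against 2.99 CPM in cDC2-like cells (1.32, SE 0.29), Hist4h4, an H4 gene, 12.4 against 5.22 CPM (0.92, SE 0.25), and Hist3h2ba 21.2 against 9.52 CPM (0.73, SE 0.18). Hist4h4 and Hist2h2be were at 0 in the pDC-like sum of WT panobinostat, which held 39 cells and 210205 UMIs. An unnamed cluster of 208 cells, led by Ifi44 and Sct and with 12 of 12 pDC markers raised, had 98.5 CPM of Hist3h2a, 18.2 of Hist4h4, 21.5 of Hist3h2ba and 8.28 of Hist2h2be, against 66.9, 12.3, 20.3 and 8.42 CPM in pooled pDC-like cells. The lower members were led by Hist1h2ab, with a median of 1.14 CPM in pDC-like against 19.4 CPM in cDC2-like cells (-4.51, SE 0.31), and Hist1h1b, with 9.15 against 134 CPM (-4.12, SE 0.21). With cycling cells left out of both classes, 25 members were tested, 4 were higher and 21 lower, and the value of Hist1h1b was -1.18. Counts without cycling cells, here and in the next comparisons, have no share of all genes to be read against.

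Mature DC-like cells were lower than cDC2-like cells for 23 of 44 members and higher for 3 (32.1% and 31.9% of genes). Hist1h2bc ran between 60.8 and 113 CPM (median 77.0) in mature DC-like cells, against 27.9 to 52.0 CPM (median 41.2) in cDC2-like cells, without overlap (1.14, SE 0.13, adjusted p = 6.84e-09). Hist3h2a was higher by 0.96 (SE 0.12) and Hist1h4i by 0.45 (SE 0.13). Hist1h1b had 22.3 to 57.6 CPM in mature DC-like and 100 to 199 CPM in cDC2-like cells (-1.59, SE 0.15), and Hist1h2ae 37.2 to 68.4 CPM against 117 to 290.0 CPM (-1.24, SE 0.13). This depended on the cycling cells. Without them only 2 of 25 tested members were lower and 5 higher, and Hist1h2ae, Hist1h1e, Hist1h4d, Hist1h2ap and Hist1h3e changed sign, with values between 0.0028 and 0.25.

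The cDC1-like cells were lower than cDC2-like cells for 29 of 44 members and higher for 1 (29.2% and 28.4% of genes). Hist3h2a was the higher one, with 18.1 to 21.9 CPM in cDC1-like and 11.4 to 21.3 CPM in cDC2-like cells (0.57, SE 0.11, adjusted p = 6.96e-05), and its ranges overlapped. Hist1h2ae had 33.6 to 70.7 CPM in cDC1-like against 117 to 290.0 CPM in cDC2-like cells (-1.44, SE 0.12). Hist1h1d was also lower, at -1.52 (SE 0.12), as were Hist3h2ba at -1.67 (SE 0.20) and Hist1h1e at -0.92 (SE 0.10). The share of cycling cells was higher in cDC1-like cells of 4 samples and lower in those of leukemia vehicle 2 (23.5% in cDC1-like, 27.9% in cDC2-like cells) and WT vehicle (11.2% and 13.6%). Without cycling cells 1 member was higher and 10 lower of 25 tested. Cells of the cDC1-like class were deeper, with a median of 12596 UMIs against 5473 in cDC2-like cells, and the part of depth was not tested beyond the thinned sums, in which 1 was higher and 10 lower of 22.

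Panobinostat was compared with vehicle within each class, with disease as a covariate. Few members were called, and few genes of any kind. In cDC1-like cells 0 of 41 members were called by edgeR's quasi-likelihood test (1.72% of 9985 genes), 6 had an unadjusted p under 0.05, and DESeq2 also called 0. Of the S phase genes in the same cells, 15 of 25 were higher, with a median log2 fold change of 0.54. The shares of cycling cells were 23.8%, 30.9% and 28.1% in panobinostat samples and 22%, 23.5% and 11.2% in vehicle samples, and without cycling cells the median of 24 tested S phase genes was 0.34, with 0 called by edgeR and 14 at an unadjusted p under 0.05. In mature DC-like cells 0 of 32 members were called (0.0421% of 9495 genes), with 9 at an unadjusted p under 0.05 and 0 by DESeq2. In pDC-like cells 0 of 15 were called (0.176% of 9113 genes), with 1 at an unadjusted p under 0.05 and 0 by DESeq2. The counts at an unadjusted p, here and below, have no share of all genes beside them and describe the members alone.

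In cDC2-like cells 1 of 42 members was called, lower, against 0.0414% of 9667 genes. It was Hist1h1e, a linker histone gene, at 66.4, 77.4 and 57.0 CPM in leukemia panobinostat 1 and 2 and WT panobinostat, against 116, 112 and 91.8 CPM in leukemia vehicle 1 and 2 and WT vehicle. The groups did not overlap, with means of 67.0 ± 10.2 CPM in panobinostat and 107 ± 13 CPM in vehicle samples (SD, n = 3 each). The log2 fold change was -0.62 (SE 0.10, adjusted p = 0.0349 by edgeR). Without cycling cells it was -0.84 (adjusted p = 0.0159 by edgeR), and the shares of cycling cells were 13.4%, 17.3% and 20.1% in panobinostat samples and 15.8%, 27.9% and 13.6% in vehicle samples. The call was kept in 6 of 15 alternatives, with adjusted p between 2.07e-05 and 0.141, and in 1 of the 6 that left out a sample. Hist1h1e overlaps Hist1h2be and Gm11398 on the same strand, so its reads may be shared. Of the 42 tested members 35 had a negative value, with a median of -0.36, against a median of -0.01 over all genes, and 10 had an unadjusted p under 0.05.

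2 members that were not called had values outside the vehicle range in mature DC-like cells and were chosen after their values were seen among the abundant 12. Hist1h1b had 57.6, 54.3 and 34.7 CPM in panobinostat samples, against 31.7, 22.3 and 24.7 CPM in vehicle samples (0.86, SE 0.15, adjusted p = 0.0528 by edgeR). Hist1h2bc had 65.2, 70.6 and 60.8 CPM in panobinostat samples, against 87.0, 113 and 83.4 CPM in vehicle samples (-0.41, SE 0.13, adjusted p = 0.30 by edgeR). Neither pair of groups overlapped and neither passed the threshold. Cycling cells made up 5.70%, 6.74% and 5.16% of the class in panobinostat samples, against 4.91%, 4.55% and 2.80% in vehicle samples. Without cycling cells the value of Hist1h1b was -0.26 and that of Hist1h2bc -0.39.

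**Figure D5:**
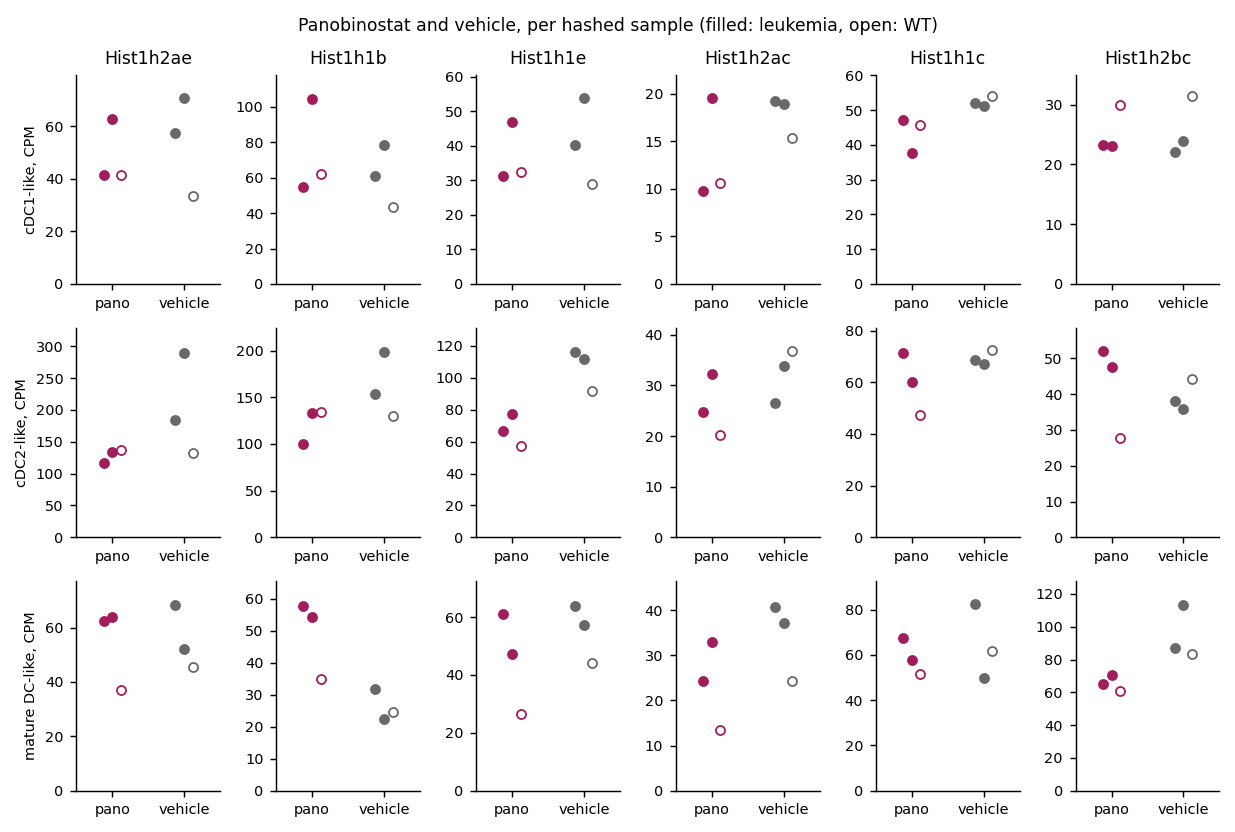
Level (CPM, axes from 0) of 6 members in panobinostat samples (left of each panel) and vehicle samples (right), in rows for cDC1-like, cDC2-like and mature DC-like cells, 1 point per hashed sample (filled leukemia, open WT). In cDC2-like cells Hist1h1e lies at 57.0 to 77.4 CPM in panobinostat and at 91.8 to 116 CPM in vehicle samples, whereas most other panels overlap.

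Leukemia was compared with WT in the same fits, with 4 samples against 2, and the WT group holds 1 sample of each treatment. In cDC1-like cells 1 of 41 members was higher and 1 lower (4.02% and 5.7% of genes). The number called was 0 without WT vehicle, 6 without WT panobinostat, 5 without leukemia panobinostat 1 and 1 without each of the other 3 samples, and it was 1 of 23 without the cluster that had acinar genes among its leading genes. Acinar markers summed to 2.04 to 4.31 CPM in cDC1-like cells of the leukemia samples, against 1.84 CPM in WT panobinostat and 200.3 CPM in WT vehicle. In WT vehicle 1 cycling cell held 3158 acinar marker UMIs. The part of these markers in the result was not tested beyond the counts above. Hist1h2bc had 23.2, 23.2, 22.1 and 24.0 CPM in leukemia panobinostat 1 and 2 and leukemia vehicle 1 and 2, against 29.9 and 31.4 CPM in WT panobinostat and WT vehicle. The groups did not overlap, and the log2 fold change was -0.51 (SE 0.098, adjusted p = 0.00444 by edgeR), kept in 11 of 14 alternatives (adjusted p between 0.000127 and 0.135). Hist1h2ae had 41.3, 62.9, 57.4 and 70.7 CPM in the 4 leukemia samples, against 41.4 and 33.6 CPM in the WT samples. The lowest leukemia sample lay within the WT range, and the call at 0.51 (SE 0.15, adjusted p = 0.0393 by edgeR) was kept in 5 of 14 alternatives (adjusted p between 3.20e-05 and 0.807). Without cycling cells the value of Hist1h2ae was 0.10 and that of Hist1h2bc -0.66. Cycling cells made up 23.8%, 30.9%, 22% and 23.5% of the class in leukemia samples, against 28.1% and 11.2% in WT samples. Some S phase genes were also called higher in leukemia in these cells, led by Ccne2 at 0.93, Ung at 0.75 and Mcm2 at 0.63. Others, such as Pcna at 0.16, were not called.

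In mature DC-like cells 2 of 32 members were higher in leukemia and 0 lower (1.06% and 0.653% of genes). Hist1h2ac had 24.3, 33.0, 40.8 and 37.1 CPM in the leukemia samples, against 13.5 and 24.3 CPM in the WT samples (0.74, SE 0.17, adjusted p = 0.0370 by edgeR). Hist1h1e had 61.1, 47.2, 63.9 and 57.3 CPM in the leukemia samples, against 26.7 and 44.0 CPM in the WT samples (0.63, SE 0.15, adjusted p = 0.0454 by edgeR). In both genes the lowest leukemia sample lay beside the higher WT sample. The calls were kept in 6 and 3 of 13 alternatives (adjusted p between 0.00339 and 0.225 for Hist1h2ac, and between 0.00246 and 0.448 for Hist1h1e), and both were lost without cycling cells, at values of 0.69 (adjusted p = 0.0651 by edgeR) and 0.52 (adjusted p = 0.213 by edgeR). Cycling cells made up 5.70%, 6.74%, 4.91% and 4.55% of the class in the leukemia samples, against 5.16% and 2.80% in the WT samples. All 32 members had a positive value, with a median of 0.40 against 0.01 over all genes. The erythroid markers summed to 2446 to 3089 CPM in these cells of the leukemia samples, against 2737 CPM in WT panobinostat and 1553 CPM in WT vehicle, and their part in the result was not tested.

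In cDC2-like cells 0 of 42 members were called for leukemia (0.238% of genes), 4 had an unadjusted p under 0.05 and DESeq2 called 0. In pDC-like cells 0 of 15 were called (0.889%), 0 had an unadjusted p under 0.05 and DESeq2 called 0. The panobinostat effect did not differ between leukemia and WT at an adjusted p under 0.05 for any member: 0 of 44, 45, 33 and 23 in the cDC1-like, cDC2-like, mature DC-like and pDC-like classes, against 0.213%, 0.129%, 0.965% and 0.232% of all genes. At an unadjusted p under 0.05 there were 8, 12, 2 and 3, without a share of all genes at that threshold to set beside them. With 1 WT sample per treatment, that difference has little power.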

How the data were processed

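The deposited matrix holds raw UMI counts, whole numbers per feature and barcode, for genes, 2 surface antibodies (CD11c and Siglec-H) and 6 hashtags in 1 file. Per the file headers the counts were made with Cell Ranger 3.1.0; the submitters' processing notes also name Seurat 3.1.0 and the build GRCm38 (mm10), with no role. The chemistry primes on poly(A), so stem-loop mRNA without a tail is counted poorly or not at all. Near-identical histone paralogs and the 24 members that overlap another annotated gene (7 on the same strand) have uncertain counts, since the handling of shared reads is not stated.

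Of 38717 barcodes, 22335 carried a single hashtag (above the 99% quantile of a negative binomial background per tag), 13877 several and 2505 none. Cells with at least 500 genes and at most 10% mitochondrial UMIs were kept, and 1780 of 21066 (8.45%) were removed at a simulated-doublet score of 0.4. Cells were clustered (Leiden, resolution 1; leidenalg 0.10.2, igraph 0.11.9, scikit-learn 1.9.0, Python 3.11.15) on 2000 variable genes and 30 components. Members and 2017 genes correlated with the cycle were left out of the clustering. A cluster took the class with most raised markers (log2 fold of 1 and 20 CPM), 3 or more being needed. Doublets of like cells within 1 sample are not removed by either step. Among barcodes with several hashtags the score marked 43.5%, so other doublets within 1 sample may also remain.

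UMIs were summed per hashed sample and class (20 or more cells) or per cycling state (10 or more cells). The sums were tested with edgeR 4.0.16 (quasi-likelihood, TMM, filterByExpr) in R 4.3.3, with Benjamini-Hochberg adjustment over all genes tested. Sums held 210205 to 16440755 UMIs, and precision follows that depth. In simulated counts with 200 genes changed 2-fold, 91.0% were recovered for cycling over other cells and 89.0% for panobinostat over vehicle, both in cDC1-like cells. False calls numbered 3 and 12. The simulation gave every gene the same fixed spread and its samples no differences but depth and the changed genes. It therefore does not measure the power for single members, among which Hist2h4 had an SE of 0.54 for panobinostat in cDC1-like cells. Intervals and floors cover counting error only. Shares of all genes are given for the main settings at an adjusted p alone, so counts of members in alternative settings stand without them. DESeq2 1.42.0, no low-count filter, thinning to 2000 UMIs (785 shallower cells left out), another hashtag call, no doublet removal, Leiden resolution 0.5, other cycling limits, leaving out samples and, chosen after seeing the data, leaving out 1 cDC1-like cluster and splitting the cycling cells of the cDC1-like and cDC2-like classes alone were tried as alternatives.

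The members, lists and tests were chosen with earlier results of these data known. Members were named by rule: the 12 with the most UMIs, and in each comparison those past adjusted p 0.05, up to 10 by size of the change. Positions and transcripts are from GENCODE vM21, promoters from RefSeq on GRCm38.p6, matched by symbol or synonym and position. The antibody tags were not used here.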

Additional observations from a re-analysis of the deposited data

Results flagged for a closer look

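In cDC2-like cells, the log2 ratio of Hist1h1e in cycling over other cells was 3.33 in leukemia panobinostat 2, far from the 2.05 to 2.33 of the other 5 samples. It was the only one of 24 such groups tested in which a sample stood apart by Dixon's test at 95%; chance flags about 1 in 20 groups.

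The effect of cycling differed between cDC1-like and cDC2-like cells for 5 of 45 members by an interaction term in edgeR's quasi-likelihood fit, at an adjusted p under 0.05. Given as the effect in cDC1-like minus that in cDC2-like cells on the log2 scale, the differences were -1.47 for Hist2h2aa1, 0.82 for Hist1h1d, -0.62 for Hist1h2ae, -0.49 for Hist1h4d and -1.10 for Hist1h2ab, the last with an adjusted p of 0.0496. Over all genes tested the median difference was 0.11, and 8.45% were called.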

How the results depend on the processing

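Of 2760 recomputed values of single members, 2622 kept their side of the threshold, 79 lost a call, 53 gained one and 6 reversed. Of these, 5 were in mature DC-like over cDC2-like cells without cycling cells: Hist1h2ae at 0.0028, Hist1h1e at 0.087, Hist1h4d at 0.25, Hist1h2ap at 0.0078 and Hist1h3e at 0.15. The other was Hist1h2ac at -0.056 for cycling in cDC1-like cells without the cluster that had acinar genes among its leading genes. Sign changes of values that were not called, such as that of Hist1h1b for panobinostat in mature DC-like cells, are not among the 6. Of 198 recomputed counts of called members, 145 stayed within 1.5 times the main count.

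Thinned to 2000 UMIs, which leaves fewer members to test, the called members numbered 11 (main 40) and 19 (main 36) for cycling over other cells in cDC1-like and cDC2-like cells, 24 (main 41) for S-leaning over G2/M-leaning cells, 0 for leukemia in cDC1-like and in mature DC-like cells (main 2 each), and 11, 21 and 11 for cDC1-like, pDC-like and mature DC-like over cDC2-like cells (main 30, 43 and 26). With cycling also called on thinned cells, an alternative chosen after seeing the data, they were 16, 22 and 7 for the first 3. Without the cluster with acinar genes, also chosen after seeing the data, which leaves 25 and 23 members to test, they were 20 for cycling and 1 for leukemia in cDC1-like cells. Without cycling cells they were 11, 25 and 7 for the 3 class comparisons and 0 for leukemia in mature DC-like cells. The ratio hashtag call gave 26 for cycling in cDC1-like cells and 4 for panobinostat in cDC1-like cells (main 0); the cause was not tested. Without the low-count filter, panobinostat called 3, 4 and 2 members in cDC1-like, cDC2-like and mature DC-like cells (main 0, 1 and 0), and leukemia called 4 in cDC1-like and 4 in mature DC-like cells. DESeq2 called 0 for panobinostat in cDC2-like cells and 0 for leukemia in cDC1-like and mature DC-like cells. Leiden resolution 0.5 gave 0 for panobinostat in cDC2-like cells, and no doublet filter 1 for leukemia in mature DC-like cells.

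Sample numbers exist for the leukemia samples alone. Deviations of the log levels from the mean of each treatment group correlated between same-numbered samples at 0.042 to 0.079. With so few samples per treatment this cannot decide whether the numbers mark pairs, and they were treated as names. In leukemia samples alone the replicate block gave 1 called member for panobinostat in cDC1-like and 3 in mature DC-like cells, and no replicate block gave 1 in mature DC-like cells.

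Leaving out 1 sample at a time gave 36 to 41 and 34 to 36 called members for cycling in cDC1-like and cDC2-like cells and 35 to 41 for S-leaning cells. For panobinostat it gave 0 to 3, 0 to 3, 0 to 1 and 0 to 0 in cDC1-like, cDC2-like, mature DC-like and pDC-like cells, and for leukemia 0 to 6, 0 to 1, 0 to 3 and 0 to 0. The class comparisons gave 21 to 30, 40 to 43 and 24 to 27. For panobinostat, 3 came without leukemia panobinostat 1 in cDC1-like and without WT panobinostat in cDC2-like cells; for leukemia, 0 came without WT vehicle and 6 without WT panobinostat in cDC1-like cells.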

Other observations

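Megakaryocyte-like cells, a class of 70 cells with all 6 megakaryocyte markers raised, had a high member level that did not come with many cycling cells. In the 59 of them that were not cycling, 441 of 241501 UMIs were from members, or 1826 CPM (95% Poisson interval 1660 to 2005, counting error only). A further 14 cells, left unnamed with all 6 megakaryocyte and 12 of 12 pDC markers raised, had 1753 CPM with no cycling cell among them. Other cells that were not cycling had 950.0 CPM in the unnamed cluster led by Cited1 and Ms4a2, 894 CPM in the erythroid-like class, 451 in mature DC-like, 445 in cDC2-like, 296 in pDC-like and 262 in cDC1-like cells. The members differed from those of cycling cells: Hist1h2bc was at 596 CPM (interval 503 to 702), Hist1h1c at 460 CPM (378 to 554), Hist1h4i at 211 CPM (157 to 278) and Hist1h4h, an H4 gene, at 186 CPM (136 to 249). Hist1h2ae was at 37.3 CPM (17 to 70.7), although it held the most UMIs over all kept cells. Over all non-cycling cells Hist1h2bc was at 49.8, Hist1h1c at 63.2, Hist1h4i at 20.8, Hist1h4h at 5.69 and Hist1h2ae at 23.9 CPM. Hist1h1c and Hist1h2bc thus lay above Hist1h2ae in those cells as well. The 12 erythroid markers summed to 14947 CPM in the class, against 1062 to 2238 CPM in the 4 DC-like classes, and their part in the level was not tested. The 70 cells came from all 6 samples, 2 to 26 each, with 814 to 3147 CPM per sample over cycling and other cells together. Too few cells per sample were present for a test, and the class was looked at after its level was seen.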
